A study of Mus musculus with 8 samples.

Results

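Tbx21, Eomes, Stat4, Maf and Rora encode factors that direct the choice of helper fate in CD4+ T cells. These 5 genes were chosen by name, out of 20780 autosomal protein-coding genes, and each was studied over its body and 10 kb to either side (GENCODE M21 annotation, GRCm38). The assay was bisulfite sequencing of the whole genome, which converts unmethylated cytosines, so that the methylation level of a CpG is the percentage of its reads left unconverted. Tbx21 lies at chr11:97098071-97115331 on the minus strand, Eomes at chr9:118478212-118486132 on the plus strand, Stat4 at chr1:51987148-52107189 on the plus strand, Maf at chr8:115682942-115707794 on the minus strand and Rora at chr9:68653786-69388246 on the plus strand. The 5 spans held 10599 of the 18216084 autosomal CpGs that had at least 5 reads in all 4 files. The cells were CD43- B cells (resting) and naive CD4+ T cells from the spleen of C57BL/6J mice, an inbred strain, aged 6 to 8 weeks and carrying no engineered allele or treatment that the labels name. The T cells were sorted as CD62L high, CD44 low and CD25 negative after depletion of other lineages. Cells were pooled over animals, and 8 samples formed 4 groups of 2, by cell type and sex. Where 4 values are listed below, females come before males and, in each sex, B cells before T cells. Each group had 1 file, and whether it merges both samples or holds 1 of them is not stated. There are therefore no replicates within a group, and a difference between B and T cells was seen once in females and once in males. A level in such a pool is an average, so that partial methylation in every cell and full methylation in some of the cells cannot be told apart.

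A naive CD4+ T cell has not yet become a helper cell of a given kind. On activation, cytokines act through receptors and STAT proteins to induce lineage factors, which switch on the cytokine genes of that lineage. Tbx21 encodes T-bet, the T-box factor of Th1 cells, and Eomes encodes its relative eomesodermin, best known from cytotoxic T cells and NK cells. Stat4 carries the interleukin-12 signal that favours the Th1 fate. Maf (c-Maf) drives interleukin-4, interleukin-10 and interleukin-21 expression in several helper lineages. Rora encodes the nuclear receptor ROR alpha, which acts in Th17 cells and in group-2 innate lymphoid cells. CpG-rich promoters are commonly unmethylated whether or not the gene is active, while methylation at distal elements often differs between cell types.

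The 1 kb windows called different between B and T cells lay inside these genes, and stretches of reference sequence (GRCm38, plus strand) that carried them in Stat4 and Rora are shown here because the results turn on them. Each is the run of at most 300 bases with the largest summed B and T cell difference in the leading region of its gene, chosen after its values were seen. Capitals mark the CpGs that were measured, and the first of them starts at base 11.

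Stat4 intron, lower in T, chr1:52080134-52080386: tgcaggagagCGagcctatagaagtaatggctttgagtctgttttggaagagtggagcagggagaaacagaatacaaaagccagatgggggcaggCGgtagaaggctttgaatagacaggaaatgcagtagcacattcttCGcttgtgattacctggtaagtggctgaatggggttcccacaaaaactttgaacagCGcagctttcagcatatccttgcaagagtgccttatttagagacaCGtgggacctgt
Rora intron, lower in T, chr9:69226562-69226748: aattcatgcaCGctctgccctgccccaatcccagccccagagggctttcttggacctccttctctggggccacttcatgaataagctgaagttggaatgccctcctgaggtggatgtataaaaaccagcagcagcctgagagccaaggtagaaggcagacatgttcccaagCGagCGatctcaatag
Rora intron, lower in B, chr9:68956188-68956446: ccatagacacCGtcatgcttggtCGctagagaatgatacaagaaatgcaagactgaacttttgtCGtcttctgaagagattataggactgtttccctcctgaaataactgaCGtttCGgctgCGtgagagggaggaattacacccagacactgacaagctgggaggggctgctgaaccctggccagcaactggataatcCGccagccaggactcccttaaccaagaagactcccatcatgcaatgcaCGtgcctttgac

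In the Stat4 stretch the pooled level of the 5 CpGs was 90.7%, 24.3%, 93.5% and 18.4%. Its first CpG stayed at 81.5% and 72.2% in the T cell files, and the 4 CpGs after it fell to between 0% and 11.8%. The Rora stretch that was lower in T cells held 3 CpGs. The last 2 of them, at bases 172 and 176, were 100% methylated in the female and the male B cell file and 0% in either T cell file, with 15 to 17 reads each. The Rora stretch that was lower in B cells held 8 CpGs, with pooled levels of 2.48%, 49.3%, 2.60% and 52.9%. In T cells its single CpGs ran from 17.6% to 78.3%. Across the 3 stretches, all CpGs had the same direction in both sexes. Because these stretches were chosen for their difference, the values are a description.

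**Figure D1:**
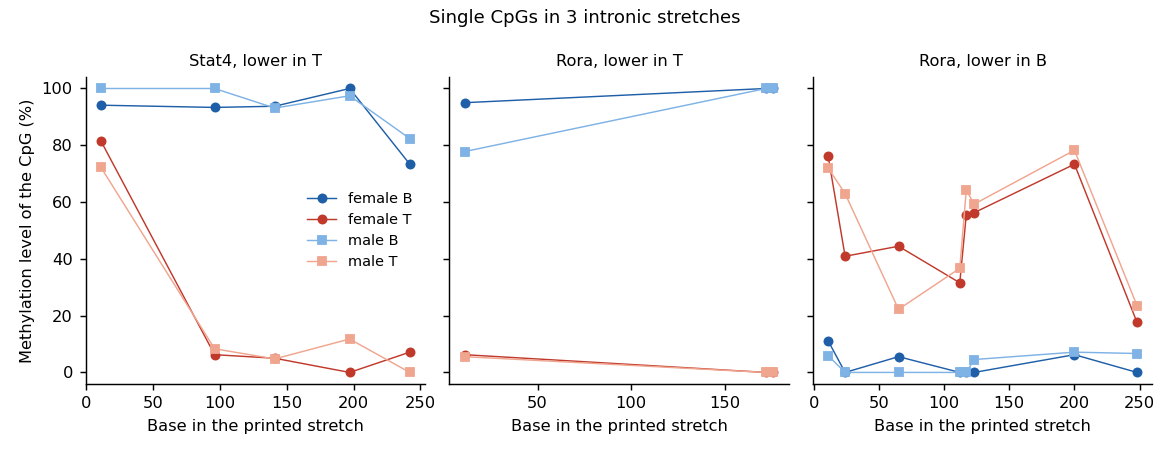
Methylation level in percent of each CpG against its base position in the 3 printed intronic stretches, with 1 line per file (B cells in blue, T cells in red, circles for females, squares for males). The B and T cell files are apart at every CpG of the 3 stretches. They are closest at the first CpG of the Stat4 stretch and the last CpG of the Rora stretch lower in B cells.

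The files were deep enough to place these levels. Autosomal CpG reads ranged from 278275973 to 339923001 per file, and the mean depth over the CpGs of the 5 spans ranged from 14.0 to 19.5 reads. Between 90.1% and 96.1% of the reference CpGs of each span were measured. The labelled cell types were checked by marker genes. Here 7 of 8 B cell marker promoters were called lower in B cells, and Pax5 was lower there by 15.3 points. All 10 T cell marker promoters were called lower in T cells. Both CD8 marker promoters were also called lower in T cells, by 20.9 points at Cd8a and 50.3 points at Cd8b1. The 3 NK cell marker promoters (Ncr1, Klrb1c and Klre1) lay between 78.7% and 95.5% in every file, with adjusted p of 0.741 to 0.973 in the quasi-binomial model. Of 5 myeloid markers, Mpeg1 was called, lower in B cells by 22.9 points, and Lyz2 was lower there by 19.3 points (adjusted p = 0.0441), under the 20 points. The part that other cells in either sort might have in the levels below was not tested.

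At the annotated starts, the question was whether the promoters of these genes differ between B cells and naive T cells. They did not pass the test. A promoter was taken as the annotated start with 1 kb to either side, and its level as methylated over all reads of its CpGs. Differences were tested by a quasi-binomial model on cell type and sex, and a feature was called where the adjusted p was under 0.05 and the mean difference reached 20 percentage points. Of the 20228 promoters tested, 0.929% were called, and 0 of these 5 were. At an unadjusted p under 0.05 the count was 1 of 5 (Tbx21), and limma on log2 ratios called 0.

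The Tbx21 promoter was at 3.35%, 2.15%, 3.48% and 1.89%, over 1839 to 2976 reads. Both T cell files were below both B cell files, by 1.39 ± 0.277 points (SD over the 2 sexes; adjusted p = 0.198 in the quasi-binomial model), or by 0.664 points as a mean over CpGs. The Eomes promoter was at 1.57%, 1.74%, 1.15% and 0.893%. The Maf promoter had the lowest level of the 5, at 0.327%, 0.118%, 0.201% and 0.322%, and only 1.17% of all promoters had a mean level as low. The Rora promoter was at 3.41%, 3.403%, 2.04% and 3.24%. For these 3 genes the sign of the difference was not the same in both sexes. The promoters of Tbx21, Eomes, Maf and Rora held between 121 and 128 reference CpGs, against a median of 65 over all promoters.

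Stat4 was the exception in level. Its annotated promoter held only 24 CpGs and was at 86.8%, 86.9%, 90.9% and 87.0%, over 378 to 444 reads. The mean B minus T difference was 1.85 ± 2.85 points (adjusted p = 0.822), and -0.167 as a mean over CpGs. A shorter coding transcript, Stat4-201, starts further on, at chr1:52008243, and the 2 kb around that start were at 11.4%, 16.9%, 14.6% and 16.3%. The first start was thus far above the second in every file, while the second start was not called between B and T cells (adjusted p = 0.439). The second Rora start, of transcript Rora-202 at chr9:69289682, was at 5.01%, 5.01%, 5.32% and 3.52% and was not called either. Over all 51217 coding transcript starts, fitted together, 1.38% were called, and 0 of the 10 starts of these genes.

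The RefSeq promoter sequences (GRCm38.p6, 250 bases before to 50 after the start, written in the direction of transcription) show the contrast in CpG content. Entries were found for 4 of the 5 genes, all but Maf, and they are printed here for the CpG-rich Tbx21 promoter and both Stat4 starts, with measured CpGs in capitals.

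Tbx21, chr11:97115282-97115581, minus strand: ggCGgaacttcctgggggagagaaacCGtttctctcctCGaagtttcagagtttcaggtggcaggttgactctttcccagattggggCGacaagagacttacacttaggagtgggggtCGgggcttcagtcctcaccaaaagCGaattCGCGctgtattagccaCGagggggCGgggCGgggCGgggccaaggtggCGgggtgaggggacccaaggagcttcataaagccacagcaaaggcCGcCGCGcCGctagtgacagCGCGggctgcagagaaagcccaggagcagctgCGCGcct
Stat4 first start, chr1:51986898-51987197, plus strand: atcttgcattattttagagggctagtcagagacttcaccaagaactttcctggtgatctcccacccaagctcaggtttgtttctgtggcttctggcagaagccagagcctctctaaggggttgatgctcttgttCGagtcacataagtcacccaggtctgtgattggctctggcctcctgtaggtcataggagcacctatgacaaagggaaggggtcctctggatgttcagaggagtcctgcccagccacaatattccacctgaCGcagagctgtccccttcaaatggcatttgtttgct
Stat4 second start, chr1:52007990-52008289, plus strand: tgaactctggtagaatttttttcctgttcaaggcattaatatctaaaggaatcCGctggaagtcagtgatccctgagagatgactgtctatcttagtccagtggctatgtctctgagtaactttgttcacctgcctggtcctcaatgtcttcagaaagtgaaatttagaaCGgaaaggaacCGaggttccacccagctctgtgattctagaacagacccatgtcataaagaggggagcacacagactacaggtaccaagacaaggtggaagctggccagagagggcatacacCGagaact

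All 21 CpGs of the Tbx21 sequence were measured, and their pooled level was between 0.200% and 0.629% in the 4 files. The first Stat4 sequence held 2 CpGs, with pooled levels of 87.2%, 76.3%, 97.4% and 82.9%, over 35 to 39 reads per file. The 4 CpGs of the second Stat4 sequence were between 45.0% and 50.5% in all files. The low levels around that start lay on its downstream side, in the windows described next.

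In runs of neighbouring 1 kb windows at or below 20% in every file, the low stretch around the annotated start was 5 kb long at Maf, 4 kb at Eomes, 3 kb at Rora and 2 kb at Tbx21. The median over protein-coding genes that have such a stretch was 2 kb, and a stretch as long as that of Maf was found at 1.99% to 2.16% of the 20780 genes, depending on the file. At this limit each stretch had the same bounds in B and T cells. At a limit of 10% the Eomes stretch was 3 kb in the female B cell file and 4 kb in the other files, and the Maf stretch was 5 kb in the male B cell file and 4 kb in the other files. Eomes had a second low stretch of 4 kb just past its end, at chr9:118486001-118490000, where windows ranged from 0.811% to 7.20%. The start of the antisense gene Gm33460 lies in it. Stat4 had no low window at its first start, and its longest low stretch, of 2 kb, began at the second start (chr1:52008001-52010000, 8.52% to 16.96%). Single low windows of Stat4 lay at chr1:52019001-52020000 (0% to 19.6%) and chr1:52113001-52114000 (1.29% to 2.22%). The start of Gm31812 lies in the latter. Rora had 3 kb of low windows at each of its 2 coding starts, and a single low window at chr9:69125001-69126000, away from both coding starts, that was between 0.993% and 5.28% in every file. Another single low window, at chr9:69398001-69399000 (2.43% to 5.32%), lies in Ice2 at the edge of the downstream flank. The Maf stretch also holds the start of the antisense gene Gm15655.

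**Figure D2:**
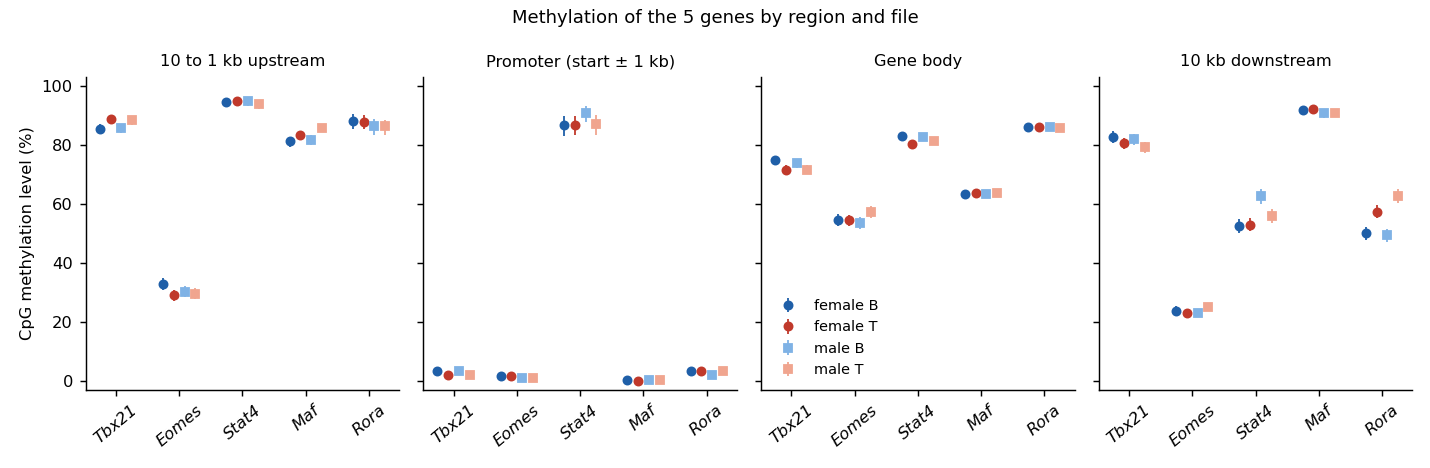
Methylation level in percent of the upstream flank (10 kb to 1 kb before the start), promoter, gene body and downstream flank of the 5 genes in each of the 4 files, with 95% Wilson intervals of counting error. The intervals take the reads at different CpGs as separate reads. The promoters of 4 genes sit below 4% and that of Stat4 above 86% in every file, and B and T cell files of the same sex lie within 4 points of each other except in the downstream flanks of Stat4 and Rora.

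Averaged over the gene bodies (from 1 kb past the start to the annotated end), B and T cells also had close levels. Of 19705 bodies tested, 0.584% were called, and 0 of these 5. At an unadjusted p under 0.05 the count was 2 of 5, and limma called 0. The Rora body, of 7433 CpGs, was at 86.0%, 85.9%, 86.0% and 85.9%, with a difference of 0.108 ± 0.0185 points, which turned to -0.043 when each CpG was weighted equally. The Stat4 body was at 83.0%, 80.4%, 82.7% and 81.5%. The Stat4 difference of 1.89 ± 0.991 points passed the adjusted p (0.0368) but not the 20 points. The Tbx21 body was at 74.8%, 71.6%, 73.8% and 71.7%, lower in T cells by 2.64 ± 0.734 points (adjusted p = 0.115), or by 1.32 points with CpGs weighted equally. The Maf body was at 63.5%, 63.8%, 63.5% and 63.7%. The Eomes body was the least methylated, at 54.6%, 54.5%, 53.5% and 57.3%. In order of mean level the bodies ran Rora, Stat4, Tbx21, Maf and Eomes, in every file. The median body level over all genes was 87.3%, so all 5 genes were below it.

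In the flanks, Eomes was again the least methylated. Its upstream flank was at 32.8%, 29.0%, 30.2% and 29.6%, and its downstream flank at 23.6%, 22.96%, 23.1% and 25.1%. The Rora downstream flank had the largest flank difference. It was at 50.1%, 57.4%, 49.3% and 62.7%. The difference of -10.4 ± 4.29 points (B minus T) passed the adjusted p (0.0366) but not the 20 points, and the flank runs into the neighbouring gene Ice2. Of all upstream flanks 0.408% were called and of all downstream flanks 0.349%, and 0 of the 10 flanks of these genes.

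Within the genes, single 1 kb windows did differ. Windows with at least 3 CpGs were tested across the autosomes (1950708 windows), of which 1.19% were called lower in T cells and 0.934% lower in B cells. Among windows in or within 10 kb of protein-coding genes the shares were 1.61% and 1.21%. The 5 genes had 979 windows, and 26 (2.66%) were called lower in T cells and 11 (1.12%) lower in B cells. The share lower in T cells was above the background and the share lower in B cells was close to it, and neither share was tested against it. The median B minus T difference over the 979 windows was -0.44 points, against 0.0473 points over all windows. In all 37 called windows the direction was the same in both sexes. A call asks for a mean of 20 points over the sexes and an adjusted p, which leaves little room for opposite signs. All 37 lay inside the genes. Of them, 31 overlapped only introns and 6 overlapped an annotated exon, and 0 of the 47 upstream and 49 downstream windows were called. Those flank windows had 5 and 6 with an unadjusted p under 0.05 in the quasi-binomial model, and limma called 0. Of all 1950708 windows, 245750 had an unadjusted p under 0.05, so such counts are no excess. The nearest called window to a first annotated start, in Maf, was 4.29 kb from it. These calls rest on a dispersion estimated from windows with enough reads of both kinds. With a dispersion estimated from all windows, 0 of the 1950708 windows passed, and limma called 20 of the 37. Over all windows limma called 21102, where the main fit called 41431, so the loss was not particular to these genes.

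Of the 26 windows that were lower in T cells, 20 were in Rora, 5 in Stat4 and 1 in Tbx21. Their median levels were 85.6%, 53.2%, 85.9% and 50.6%, so the T cell level averaged over such a window was mostly intermediate. Single CpGs can lie far from that average. In the printed Stat4 stretch, inside a called window, they ran from 0% to 81.5% in the female T cell file. In 1 of the 26 both T cell files were at or below 20%. Of the 11 windows that were lower in B cells, 9 were in Rora, 1 in Stat4 and 1 in Maf. By gene, 3.93% of the 738 Rora windows, 4.62% of the 130 Stat4 windows, 2.70% of the 37 Tbx21 windows and 2.17% of the 46 Maf windows were called in either direction. In Eomes the count was 0 of 28, with 2 at an unadjusted p under 0.05 and 0 by limma. Of the windows at all protein-coding genes, 1.61% were called lower in T cells and 1.21% lower in B cells. Calls this few cannot set Tbx21, Maf or Eomes apart from that background, and no gene was tested against it.

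Tbx21, the Th1 lineage factor, had a single called window, chr11:97103001-97104000, in an intron 11.8 kb past the start. Its 12 CpGs were at 76.2%, 35.7%, 72.7% and 32.0%. The 95% Wilson intervals cover counting error only and take the reads at different CpGs as separate reads. They were 69.3% to 81.9% and 30.05% to 41.9% in females and 66.1% to 78.5% and 26.2% to 38.4% in males. Both T cell files were far below both B cell files. B cells exceeded T cells by 40.4 points in the female pair and by 40.7 points in the male pair (adjusted p = 5.57e-23 in the quasi-binomial model and 0.0433 in limma).

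**Figure D3:**
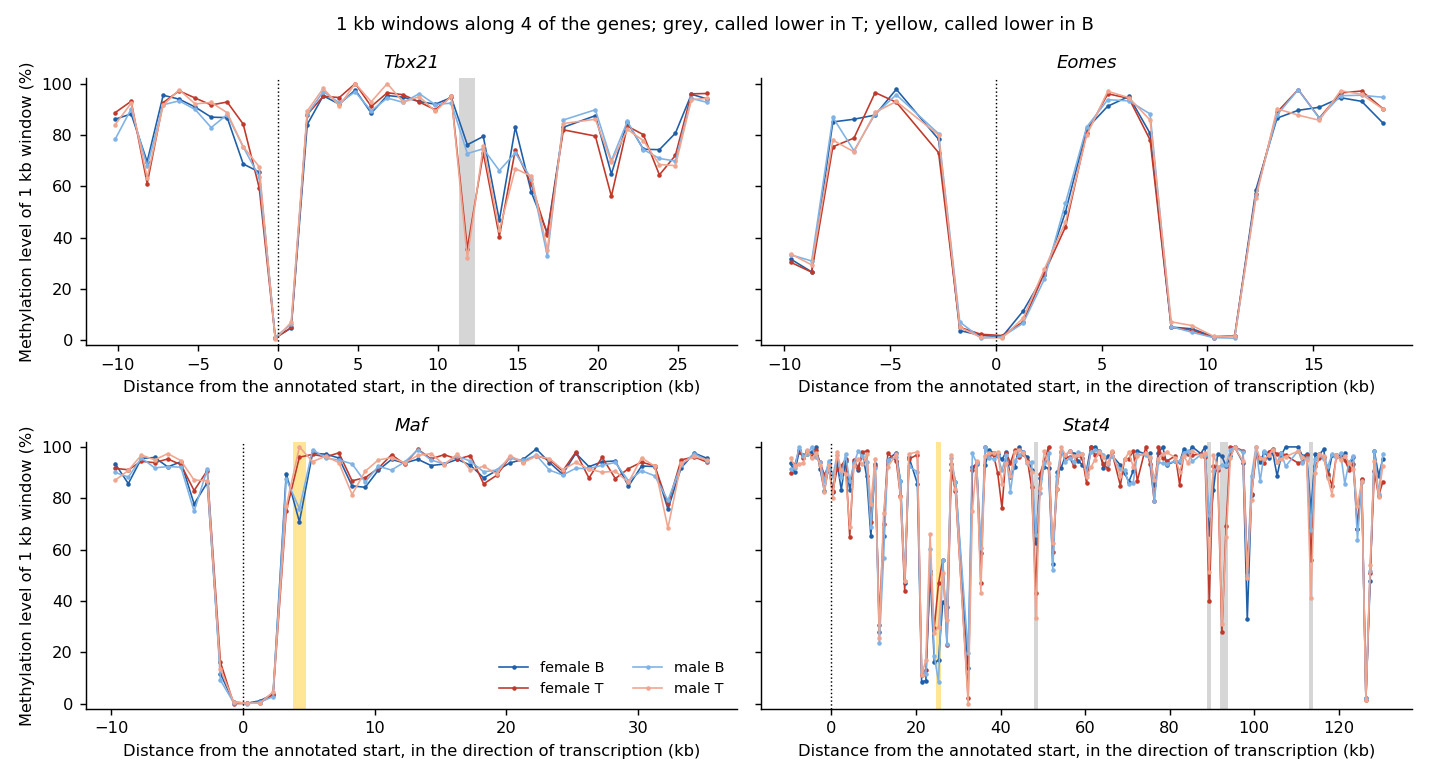
Methylation level in percent of 1 kb windows in the 4 files against distance in kb from the annotated start of Tbx21, Eomes, Maf and Stat4, with windows called lower in T cells shaded grey and lower in B cells yellow. The files overlie each other across the low stretches at the starts, and the 1 Tbx21 window at 11.8 kb and the Stat4 windows near 92.4 kb stand out with low T cell levels.

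Eomes had no called window. The window with the largest difference shared by both sexes was chr9:118470001-118471000, 7.71 kb before the start, at 85.0%, 75.4%, 86.8% and 78.0%. Its 9.27 points did not pass (adjusted p = 0.311).

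Stat4, which relays interleukin-12 signals, had the largest difference of any window in these genes. The window chr1:52079001-52080000, 92.4 kb past the first start and overlapping an exon, was at 96.3%, 27.8%, 93.1% and 30.9%. The difference was 65.4 points (68.5 in females and 62.3 in males, adjusted p = 5.73e-31), over 82 to 115 reads of 6 CpGs. The neighbouring window was also called, at 92.5%, 69.3%, 93.1% and 64.8%. The 2 joined to a region of 2 kb. The printed Stat4 stretch lies wholly in the neighbouring window of this region, not in the window with the 65.4 points. By the size that both sexes reached, chr1:52076001-52077000, which overlaps an exon, came next, at 65.9%, 40.2%, 73.5% and 51.3%. It was lower in T cells by 24.0 points (adjusted p = 4.57e-08), but limma gave an adjusted p of 0.227, and leaving out the female T cell file gave 18.4 points. The opposite direction was seen at chr1:52012001-52013000, an intron window past the second start. Its levels were 16.8%, 46.9%, 8.33% and 30% (-25.9 points, adjusted p = 6.33e-06, but 0.0787 in limma, and -17.4 points with that same file left out). Of its 5 CpGs, 3 were lower in B cells in both sexes.

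Maf had 1 called window, chr8:115703001-115704000, 4.29 kb past the start. It held 3 CpGs with 24 to 30 reads per file, and was at 70.8%, 96.0%, 76.0% and 100%. The adjusted p was 0.0137, and the call was lost with Fisher's exact test in each sex (adjusted p = 0.574), without the female B cell file (0.112) and without the male T cell file (0.276).

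Rora, at 734 kb the longest of the 5 genes, held 29 of the 37 called windows. The 3 T-lower windows with the largest difference shared by both sexes were chr9:69226001-69227000, chr9:69073001-69074000 and chr9:69227001-69228000. The first was at 96.1%, 53.6%, 95.7% and 44.8% (46.7 points, adjusted p = 2.69e-20). With its neighbour, the third, it formed a region of 2 kb that holds the printed Rora stretch lower in T cells. The third was at 84.8%, 43.7%, 77.3% and 36.6%. The second was at 63.5%, 22.9%, 71.6% and 16.7% (47.8 points, adjusted p = 2.98e-16), and joined with a called neighbour as well. In all 3 windows both T cell files were below both B cell files.

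The B-lower windows of Rora were led by chr9:68956001-68957000, an intron window 303 kb past the start. It was nearly unmethylated in B cells, at 3.38% in females and 2.21% in males, and the T cell files were at 35.9% and 44.7% (-37.5 points, adjusted p = 4.02e-42). It holds the printed B-lower stretch. The window chr9:69367001-69368000 was at 60.5%, 91.1%, 54.6% and 89.2%. A run of 3 called windows at chr9:69377001-69380000, which reaches exons near the end of the gene, was at 67.9%, 95.1%, 69.8% and 95.2%. Its middle window, among the leading 3, differed by -28.1 points (B minus T), and by -17.4 points when 10 reads were required at every CpG.

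Both directions occurred close together in Rora. The window chr9:69109001-69110000 was lower in B cells (65.1%, 94.3%, 68.8% and 94.6%), and the next window was lower in T cells (85.7%, 46.4%, 85.2% and 37.0%). The low window at chr9:69125001-69126000 that all 4 files shared was followed directly by one called lower in T cells. With the gene cut into 4 parts of equal length, the first part, of 184 kb from the start, had 1 called window of 181 and the second 4 of 179. The third had 12 of 177 and the last 12 of 181. The mean levels of the parts lay between 86.6% and 90.3% in both cell types. This division was made after the positions were seen and is a description.

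**Figure D4:**
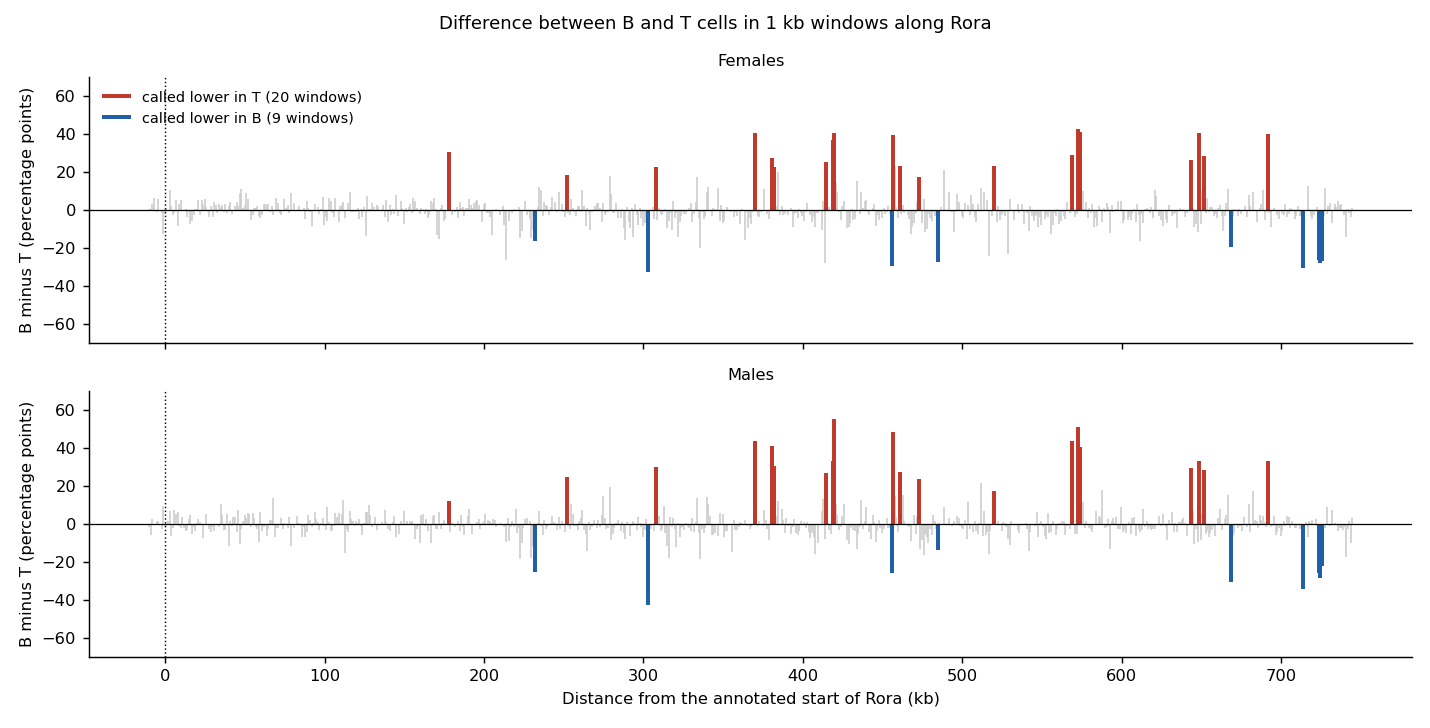
B minus T difference in percentage points of each 1 kb window along Rora against distance in kb from its first annotated start, in females (top) and males (bottom). The 20 windows called lower in T cells (red) point up and the 9 called lower in B cells (blue) point down in both sexes, and 1 of the 29 lies in the first 184 kb. The rule for a call leaves little room for opposite signs.

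Sequence motifs were counted in the called windows by their letters on both strands, as a description. The RUNX motif TGTGGT was in 19 of the 26 windows lower in T cells (73.1%) and in 53.8% of all windows tested, and in 67.5% of all windows called lower in T cells. It was also in 7 of the 11 windows lower in B cells (63.6%), against 58.8% of all windows called lower in B cells. The TCF7 family motif CTTTGAT was in 8 of 26 (30.8%), against 18.1% of all windows and 22.98% of all those called lower in T cells, and in 3 of the 11 windows lower in B cells (27.3%), against 14.9% of all those called lower in B cells. The EBF motif CCCNNGGG was in 0 of the 11 windows lower in B cells, against 16.3% of all windows and 33.9% of all those called lower in B cells, and in 6 of the 26 lower in T cells (23.1%). The T-box motif AGGTGTGA was in 1 of the 26 and 1 of the 11, against 4.15% of all windows. Of the same 26 windows, 46.2% held the E-box CAGCTG, against 33.3% of all windows and 41.3% of all those called lower in T cells. The GATA factor motif AGATAA was in 42.3%, against 48.4%. The STAT motif TTCNNNGAA was in 34.6%, against 31.3%. The ROR motif AGGTCA, the site type of Rora itself, was in 30.8%, against 45.6%, and the ETS motif CGGAAG in 7.69%, against 11.4%. Among the 11 windows lower in B cells, the GATA and ROR motifs were in 6 each (54.5%), the ETS motif and the E-box in 2 each (18.2%) and the STAT motif in 1 (9.09%). Over all windows called lower in B cells, the shares were 42.3% for GATA, 49.8% for ROR, 13.1% for ETS, 46.3% for the E-box and 28.6% for STAT. The 26 and 11 windows are few and these shares were not tested. None of the 3 printed intronic stretches held any of these 9 motifs. They are only 187 to 259 bases long, while the shares above are for 1 kb windows, so the absence cannot be set against those shares. The stretch chosen in the same way in the Stat4 window lower in B cells (chr1:52012718-52013003, not printed) held 1 RUNX and 1 ETS match.

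The sexes were compared by the same model. Of all windows, 0.00103% were called between females and males, and 0 of the 979 windows of these genes. At an unadjusted p under 0.05 the count was 54, and limma called 0. The largest difference between the sexes at a promoter or body of the 5 genes was 2.12 points.

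The other genes of helper T cell differentiation were taken from a list of 69 autosomal genes. Of their 69 promoters, 3 were called, all lower in T cells, where 0.929% of all promoters were called in either direction, and the median B minus T difference was 0.665 points against 0.145 over all promoters. The promoter of Ifng, the hallmark cytokine of Th1 cells and a target of T-bet, was at 83.8%, 57.2%, 86.3% and 61.4% (adjusted p = 0.00152). Il2rb, a chain of the interleukin-2 receptor, was at 74.8%, 47.9%, 75.0% and 56.5% (adjusted p = 0.00335). Il2ra, the alpha chain of the same receptor, was at 28.4%, 15.9%, 41.0% and 12.2% (adjusted p = 0.0465 in the quasi-binomial model). It encodes CD25, for which the T cells were sorted as negative. With limma only Ifng remained called (0.0249). Il2rb and Il2ra belong to the 18 receptor genes of the list and Ifng to its 17 target genes, and the other promoters of the list, among them those of all its transcription factors, STATs, kinases and suppressors, were not called. In the windows in or within 10 kb of these 69 genes, 469 of 4353 (10.8%) were called lower in T cells and 100 (2.30%) lower in B cells, against 1.61% and 1.21% of the windows at all protein-coding genes. The list thus had a higher share lower in T cells than the 5 factor genes (2.66%), a difference that was not tested. Lef1, a T cell factor of the TCF family, had the most, with 77 of 134 windows lower in T cells. Bach2, a repressor that restrains effector differentiation, had 61 of 362, and Tox and the kinase gene Jak1 had 28 each, of 285 and 125. Tcf7 came just after these by count, with 27 of 51. In the other direction Ikzf3, which encodes Aiolos, had 13 of 101 windows lower in B cells and Bach2 had 10 of 362. Runx1 and Ccr6 followed with 6 each, of 244 and 39. Genes were named by count, and a long gene has more windows that can be called. Bodies were called at 4 of the 69 genes (Tcf7, Lef1, Zbtb7b and Socs1), all lower in T cells, against 0.584% of all bodies.

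**Figure D5:**
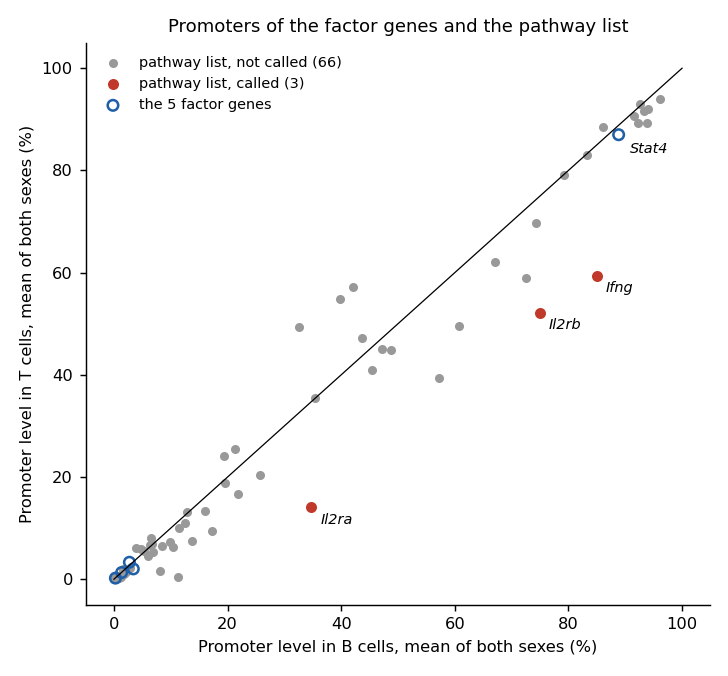
Promoter methylation in T cells against B cells, in percent as the mean of both sexes, for the 69 genes of the helper T cell list (grey, or red where called) and the 5 factor genes (open blue circles), with the line of equal levels. Ifng, Il2rb and Il2ra lie below the line, and the 5 factor genes lie near it, 4 of them close to 0 and Stat4 near the top.

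By the 8 levels of promoter and body in the 4 files, among 19390 genes with both, the 2 genes with the smallest Euclidean distance to Tbx21 were 1110004F10Rik (2.87 points) and Unc5b (3.14 points). For Eomes they were Zadh2 (3.64) and Pax2 (3.92), for Stat4 Cdrt4 (2.47) and Krt6b (3.23), for Maf Dido1 (1.91) and E4f1 (2.66), and for Rora Cacna2d3 (0.842) and Fat4 (1.21). The measure uses levels only and says nothing of function.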

How the data were processed

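Whole-genome bisulfite libraries of B and T cells were deposited by the authors as 1 table per group. In each table, a CpG has its level as a fraction, which the authors rounded up to 3 decimals, and its read count. Per the deposited values, strands were merged and no CpG had under 5 reads. The submitters' processing notes name Trim Galore, FastQC and Bismark 0.13.1 with build mm10. Duplicate removal and conversion rates are not given in the sources used here. Kept duplicates would make counting errors larger than stated, and 5-methylcytosine and 5-hydroxymethylcytosine are read alike. Low-coverage positions are missing, so poorly mapped repeats are under-represented.

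Methylated reads were recovered as fraction times coverage, rounded, and pooled over CpGs that reached 5 reads in all 4 files. A read that spans several CpGs was counted at each of them. Read counts of a feature can therefore exceed its separate reads, and Wilson intervals from them can be too narrow. Features needed 3 such CpGs. Features on the 19 autosomes were tested by quasi-binomial logistic regression on cell type and sex (1 residual degree of freedom), with dispersion squeezed across features with limma 3.58.1 in R 4.3.3, F tests and Benjamini-Hochberg adjustment over each whole table. The prior came from features with at least 5 expected reads of both kinds in every file, and was preferred with it known that a prior from all windows calls none. For 1 kb windows its degrees of freedom were infinite, so their p-values use the mean spread over windows, and very small values overstate the certainty at any single window. The code was tested on simulated data. P-values measure the spread between these 4 files only, which may be technical. Alternatives were limma on log2 ratios (pseudocount 1), Fisher's exact test in each sex, other window sizes, coverages and thresholds, and each file left out.

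The members and gene lists were chosen with earlier results of these data known. In each gene and direction the up to 3 called windows with the largest smaller-of-both-sexes difference were named, and called neighbours of 1 direction within 1 kb were joined. Of the helper list, the 3 called promoters with the largest difference and the 3 genes with most called windows were named in each direction, ties included. One intronic stretch is not reported here. The 2 genes nearest in levels were named for each factor gene.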

Additional observations from a re-analysis of the deposited data

Results flagged for a closer look

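At 8 regions of the 5 genes the B minus T difference had opposite signs in females and males. None of these passed the test of the sex by cell type interaction in the quasi-binomial model (the smallest adjusted p over the 20 regions was 0.964). With 1 file per group, that test only sets a disagreement of the sexes against the usual one over all features. It cannot show that the sexes agree. The female less the male difference was -0.43 points at the Eomes promoter, -4.03 at the Stat4 promoter, 0.331 at the Maf promoter and 1.21 at the Rora promoter. It was 3.81 points in the Eomes body, 2.67 in the downstream flank of Eomes, -1.36 in the upstream flank of Stat4 and -7.08 in its downstream flank. In the last of these, male B cells were at 62.6% and the other 3 files between 52.6% and 55.9%.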

How the results depend on the processing

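The counts of called promoters, called bodies and windows that differ by sex were 0 under all alternatives run. The largest difference was 1.85 points at a promoter and 2.64 points in a body. Fits that kept these regions and a cut of 10 or 20 points therefore had little room to call any. The 26 windows lower in T cells and 11 lower in B cells became 8 and 2 with 2 kb windows, 42 and 24 at 10 points, 12 and 2 at 30 points, 13 and 7 with limma, and 0 and 0 with a dispersion from all windows, under which 0 of all autosomal windows passed. Fisher's exact test in each sex, with the larger p of the 2 sexes taken, gave 20 and 7. With 500 bp windows the counts were 37 and 14, and with 10 reads at every CpG they were 22 and 8. Leaving out 1 file gave 23 to 25 and 9 to 13. The 3 called promoters of the helper list became 6 at 10 points and 1 with limma. The 12 named windows lost the call in 20 of 106 alternative fits, of which 12 came from the dispersion of all windows. Of 60 alternative values of promoter and body differences, 52 moved by less than the SD over the sexes. With CpGs weighted equally the sign of the difference turned in the Rora body (-0.043 points) and at the promoters of Stat4 (-0.167) and Maf (-0.0755), and the Maf body moved from -0.289 to -1.22 points with 10 reads at every CpG. The Eomes promoter was at 0.469 without the female T cell file and -0.376 without the male T cell file. Depth limits the Maf window, where 24 to 30 reads per file lay on 3 CpGs. The sex term sets the B and T cell files of each sex against each other, and without it the counts were 26 and 11. No paired analysis by replicate number could be made, since the groups share none and have 1 file each.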
